A study of Arabidopsis thaliana with 4 samples.

Results

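Differentially methylated regions (DMRs) in the CpHpG context, where H is A, C or T, were examined where they carried no annotation, that is, where the deposited tables named neither a gene nor a transposable element (TE). A region was taken if its context was CpHpG and no row of the same chromosome, start and end in that table named a gene, a TE locus or a TE family, and it was counted once per table. By this rule 409 entries were found among 3940 CpHpG regions and 24806 regions of the 3 contexts, and they lay at 369 distinct positions. SQH vs SQL held 9 of 645 CpHpG regions, FLH vs FLL 100 of 793, SQH vs FLH 129 of 1129 and SQL vs FLL 171 of 1373. The other CpHpG entries comprised 3120 that named a TE and 411 that named a gene and no TE.

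The leaves came from wild-type Arabidopsis thaliana plants of the accession Col-0 kept well watered, and the groups were set apart by light regime. They were harvested around midday, within a few minutes of each other, in the fixed order SQH, SQL, FLH and FLL. The study's methods give a span of several days of vegetative growth for the harvest. SQ stands for a square regime, in which the light stayed at a single level through the day, and FL for a fluctuating regime modelled on natural light with peaks and troughs. H and L mark the high and the low mean light, and the SQ and FL regimes of the same mean gave the same total light over the day. The labels give 22 d of acclimation and the study's results text gives 21 d. Whole-genome bisulfite sequencing, in which unmethylated cytosines are converted and methylated ones are still read as cytosine, was done on 1 library per regime, made from the pooled DNA of 6 plants. There was therefore no replicate check of any difference, and every comparison below is between 2 libraries, given with counting error only.

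In plants, methylation of CpHpG sites is maintained mainly by CHROMOMETHYLASE3, which binds histone H3 dimethylated at lysine 9, while the histone methyltransferase KRYPTONITE binds CpHpG-methylated DNA, so that both marks keep each other in place. The mark is known mostly from TEs, centromeric repeats and other heterochromatin. CpG methylation is copied by MET1 and CpHpH methylation is set by CHROMOMETHYLASE2 and by RNA-directed DNA methylation through DRM2. CpHpG sites occur as CAG, CTG and CCG, and methylation of the outer cytosine of CCG is known to depend on MET1 as well, because it lies next to a CpG site.

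The sequences of 12 positions that recur in the results are shown first, because the number of CpHpG sites and their trinucleotides bear on how well a level could be measured. The first 4 are the positions with levels in all 4 regimes. The next 2 are the largest gain and the third largest loss of SQH vs SQL, the following 3 are large losses in the other comparisons, and then comes the 300 bp region of the densest cluster with a gene nearby. The last 2 belong to repeats with over 1000 genome copies. All are the plus strand of the TAIR10 nuclear sequence read from RefSeq, 5′ to 3′, and capitals mark the CpHpG cytosines, written as C where the cytosine is on the printed strand and as G where it is on the other strand.
chr1:23639851-23640000: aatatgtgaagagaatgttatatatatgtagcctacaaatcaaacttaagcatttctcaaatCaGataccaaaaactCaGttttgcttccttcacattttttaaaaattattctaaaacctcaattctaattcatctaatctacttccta
chr1:9077851-9078000: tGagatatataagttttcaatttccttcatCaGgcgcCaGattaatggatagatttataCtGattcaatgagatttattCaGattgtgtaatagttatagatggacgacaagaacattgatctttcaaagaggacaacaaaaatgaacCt
chr1:5171851-5172000: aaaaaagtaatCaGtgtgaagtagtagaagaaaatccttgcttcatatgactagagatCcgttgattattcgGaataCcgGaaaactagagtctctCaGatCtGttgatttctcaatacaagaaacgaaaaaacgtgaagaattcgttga
chr1:23613451-23613600: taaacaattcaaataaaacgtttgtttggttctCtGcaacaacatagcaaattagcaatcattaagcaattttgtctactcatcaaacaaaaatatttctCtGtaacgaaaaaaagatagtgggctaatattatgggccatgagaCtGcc
chr4:8207951-8208100: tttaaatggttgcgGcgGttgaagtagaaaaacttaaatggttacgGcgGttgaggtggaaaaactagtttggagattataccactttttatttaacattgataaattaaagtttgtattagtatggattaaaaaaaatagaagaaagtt
chr4:7863251-7863400: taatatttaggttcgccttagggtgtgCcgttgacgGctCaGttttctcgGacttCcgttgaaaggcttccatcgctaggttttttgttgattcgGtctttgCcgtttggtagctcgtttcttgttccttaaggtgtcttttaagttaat
chr4:6177851-6178000: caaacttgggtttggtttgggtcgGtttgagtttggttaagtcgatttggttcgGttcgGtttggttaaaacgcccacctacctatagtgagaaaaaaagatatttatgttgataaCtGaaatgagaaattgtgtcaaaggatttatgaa
chr1:25332151-25332300: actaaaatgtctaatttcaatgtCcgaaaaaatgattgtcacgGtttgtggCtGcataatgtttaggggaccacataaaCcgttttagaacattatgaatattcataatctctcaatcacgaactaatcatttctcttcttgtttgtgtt
chr5:21547205-21547354: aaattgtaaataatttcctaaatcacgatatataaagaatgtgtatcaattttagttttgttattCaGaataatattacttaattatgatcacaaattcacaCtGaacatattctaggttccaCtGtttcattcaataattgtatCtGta
chr1:19713451-19713750: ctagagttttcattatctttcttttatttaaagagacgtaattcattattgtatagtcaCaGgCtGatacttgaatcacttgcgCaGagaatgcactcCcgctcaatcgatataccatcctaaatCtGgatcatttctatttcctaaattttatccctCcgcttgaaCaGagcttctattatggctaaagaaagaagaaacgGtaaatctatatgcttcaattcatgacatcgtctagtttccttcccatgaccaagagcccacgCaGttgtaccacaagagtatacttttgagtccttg
chr1:14701501-14701650: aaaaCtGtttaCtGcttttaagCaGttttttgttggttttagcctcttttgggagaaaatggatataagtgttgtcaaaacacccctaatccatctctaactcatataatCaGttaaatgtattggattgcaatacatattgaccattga
chr5:11879405-11879554: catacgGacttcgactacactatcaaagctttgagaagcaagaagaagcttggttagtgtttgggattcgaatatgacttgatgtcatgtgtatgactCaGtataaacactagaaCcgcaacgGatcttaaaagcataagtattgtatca

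Most of the regions were short and held few sites. Single 150 bp bins made up 403 of the 409 entries and the other 6 spanned 300 bp. The median number of CpHpG cytosines was 8 in SQH vs FLH as in FLH vs FLL, 9 in SQL vs FLL and 7 in SQH vs SQL, against 10 over all CpHpG regions of each table. The median depth of the unannotated entries ranged from 6.89 to 9.73 reads per cytosine over the libraries and comparisons. A level is the methylated reads divided by all reads summed over the CpHpG cytosines of a region, and since 1 read can cover several cytosines, the Wilson 95% intervals given are too narrow for independent molecules.

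Few unannotated regions were listed between high and low light under the square regime. Of the 9 regions of SQH vs SQL, 4 had the higher level in SQL and 5 the lower, and over all CpHpG regions of that comparison the share with a gain (the higher level in the second regime) was 54.1%. The pooled level, methylated over all reads of the 9 regions, was 34.1% in SQH and 29.9% in SQL. This table listed 645 CpHpG regions in 1084 rows, with 404 regions on more than 1 row, and all 9 regions were classed there as promoter. The paper's text gives a range of 793 to 1373 CpHpG regions, the numbers listed here for FLH vs FLL and SQL vs FLL. The 645 of SQH vs SQL lie below that range, so this list may be incomplete and its small number cannot be read as an effect of light.

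The largest gain was at chr4:8207951-8208100, 467 bp upstream of AT4G14240, which encodes a CBS domain protein. Its level was 35.3% (6 of 17 reads, interval 17.3% to 58.7%) in SQH and 94.4% (17 of 18 reads, 74.2% to 99.0%) in SQL. All 4 of its CpHpG cytosines were of the CCG type, as the sequence above shows, and the depth was 4.25 and 4.50 reads per cytosine, close to the minimum for calling. At chr2:10566251-10566400, 68 bp upstream of the uncharacterized gene AT2G24780, the level was 10% in SQH and 46.9% in SQL. CpHpH methylation of the same bin was also listed, at 11.8% and 49.7%. At chr2:11549951-11550100, inside the noncoding RNA locus AT2G00810, the level was 40.3% in SQH and 75% in SQL. The fourth gain, at chr1:27635101-27635250, lay 110 bp upstream of AT1G73490, which encodes an RNA-binding protein, and went from 0 of 41 reads (Wilson upper limit 8.57%) to 21.9%.

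The losses ranged from 20.5 to 32.2 percentage points and the gains from 21.9 to 59.2. At chr3:20574251-20574400, 351 bp downstream of EXPA16, an expansin of the family that loosens plant cell walls, the level was 45.8% (32.6% to 59.7%) in SQH and 13.6% (6.40% to 26.7%) in SQL. At chr5:14289305-14289454, 112 bp upstream of the long noncoding RNA AT5G05335, it was 34.6% and 7.32%. At chr4:7863251-7863400, 870 bp upstream of SMAP1, which encodes a small acidic protein, it was 33.3% and 8.86%, and CpHpH methylation there was 17.4% and 6.21%. Of the 8 CpHpG cytosines of that region 6 were CCG. The remaining losses overlapped the long noncoding RNA AT3G04585 and lay 246 bp upstream of AT3G30845, respectively. They had levels of 55.6% and 26.5% in SQH and of 33.6% and 5.98% in SQL.

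Under the fluctuating regime gains and losses were closer in number than in the comparisons of light pattern, although the intervals of the shares overlapped. In FLH vs FLL, 60 of 100 unannotated regions had the higher level in FLL (60%, interval 50.2% to 69.1%), beside 62.2% over all CpHpG regions of the comparison. The regions with a gain had a median level of 17.2% in FLH and 44.3% in FLL, and those with a loss 51.6% and 20.9%. Pooled over the 100 regions the level was 33.7% in FLH and 38.7% in FLL. Gains thus started low and losses started high, as the scatter of levels shows, and a region below 20% in FLH could be listed only as a gain.

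Where each library had 8 or more reads per cytosine, the largest gains were at 2 repeats of the gene-poor centromeric stretches and at a single-copy promoter. At chr5:11950805-11950954 the level was 14.3% (6.26% to 29.4%) in FLH and 54.5% (40.1% to 68.3%) in FLL, and at chr4:3040001-3040150 it was 12.2% (5.32% to 25.5%) and 50% (35.5% to 64.5%). These sequences matched 1944 and 581 places of the genome. The third gain, at chr2:12377801-12377950, lay 321 bp upstream of XBAT31, which encodes a RING-type ubiquitin ligase, and its level was 24.6% in FLH and 61.4% in FLL. Its sequence had 1 copy, and the nearest listed region that named a TE was 35700 bp away.

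The largest loss at that depth was at chr4:6177851-6178000, 499 bp upstream of AT4G09810, a gene of the nucleotide-sugar transporter family. CpHpG methylation was 52.0% (38.5% to 65.2%) in FLH and 15.0% (7.06% to 29.1%) in FLL. The same bin was listed in the other contexts, with CpG methylation of 81.8% and 37.1% and CpHpH methylation of 29.2% and 10.4%, so all 3 contexts were lower in FLL. The other 2 losses, at chr2:5715851-5716000 and chr5:12498905-12499054, were next to transcribed pseudogenes in gene-poor stretches, with levels of 71.9% and 70.0% in FLH and of 35.6% and 34.2% in FLL.

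**Figure D1:**
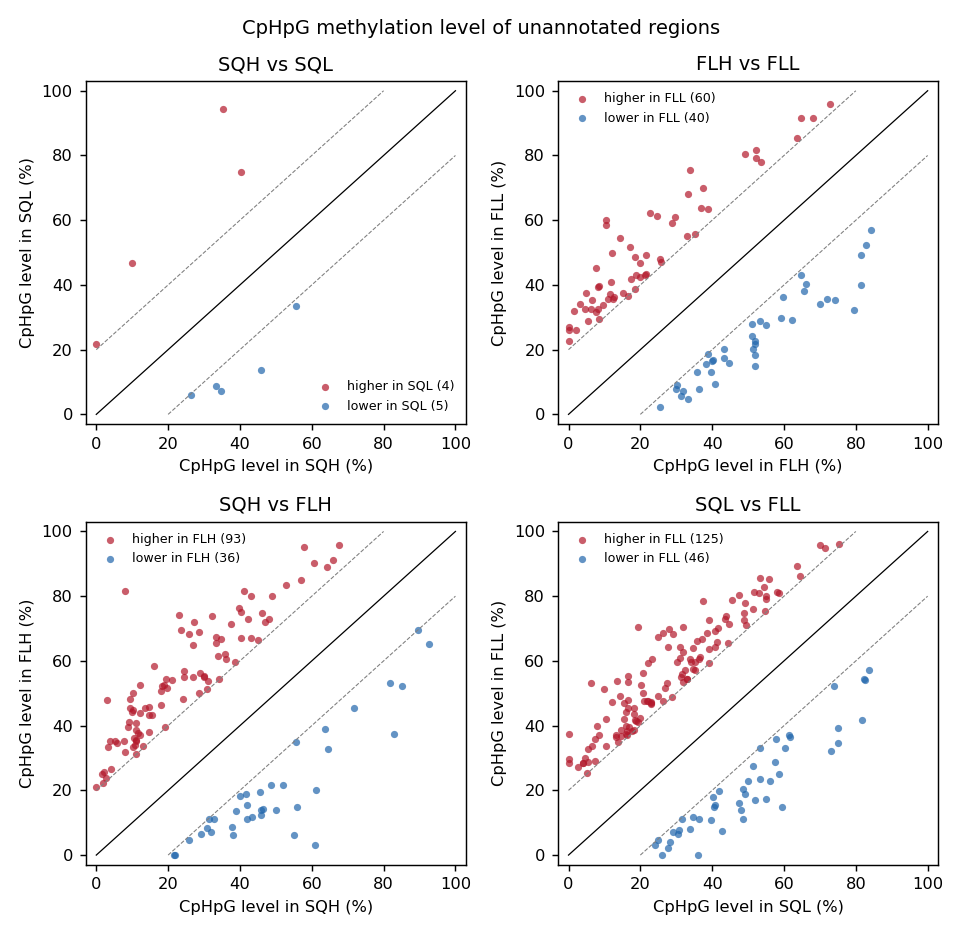
Level of CpHpG methylation (percent) of each unannotated region in the first regime of a comparison (x axis) and in the second (y axis), 1 panel per comparison and 1 point per region. The solid line marks equal levels and the dashed lines a difference of 20 percentage points, the minimum for calling, so the band between them is empty by construction; above it lie 125 of 171 points in SQL vs FLL and 93 of 129 in SQH vs FLH.

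Between the square and the fluctuating regime at high light, most unannotated regions had the higher level in FLH. In SQH vs FLH this was 93 of 129 regions (72.1%, 63.8% to 79.1%), beside 78.6% over all CpHpG regions and 80.1% (77.3% to 82.6%) over those that named a TE. The pooled level was 31.6% in SQH and 45.0% in FLH, and the regions that named a TE had 35.4% and 51.7%. The median level of the regions with a gain was 19.7% in SQH and 52.7% in FLH, and of those with a loss 45.9% and 14.1%. The unannotated share was thus below that of TEs, with intervals that overlapped between 77.3% and 79.1%, and the difference was not tested. It was close to the 74.1% (65.5% to 81.2%) of regions that named a gene and no TE.

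The largest difference of the 4 comparisons was at chr1:23639851-23640000, 69 bp upstream of the long noncoding RNA AT1G08623, with a level of 8.0% (2 of 25 reads, 2.22% to 25%) in SQH and 81.5% (22 of 27 reads, 63.3% to 91.8%) in FLH. CpHpH methylation of the bin was 0.543% and 22.7%. It rests on 4 CpHpG cytosines of the CAG and CTG types, visible as the capitals of the first sequence. With 8 or more reads per cytosine in each library, the largest gains included chr2:5715851-5716000, at 27.3% in SQH and 71.9% in FLH, and chr2:1521551-1521700, upstream of AT2G04360, at 41.0% and 81.5%. At the latter CpHpH methylation was 7.72% and 23.0%.

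The losses at that depth were at chr1:25332151-25332300, chr5:14560205-14560354 and chr3:22370651-22370800. The first lay 689 bp upstream of AT1G67580, which encodes a protein kinase, and touched a listed region that named a TE, and its level was 61.2% (47.2% to 73.6%) in SQH and 20% (12.1% to 31.3%) in FLH. Its CpHpH methylation was also lower, at 29.1% and 13.8%. The second was 20 bp from a pseudogene, with 64.5% and 32.8%. The third was inside the long noncoding RNA AT3G09445, with 43.3% and 11.7%, and its CpG methylation was 61.2% and 19.1%.

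At low light the direction was the same and the share of gains was below that of annotated regions. In SQL vs FLL, 125 of 171 unannotated regions had the higher level in FLL (73.1%, 66.0% to 79.2%), beside 82.8% over all CpHpG regions. The interval lay below the share of TE-named regions (84.0%, 81.7% to 86.1%), and it overlapped that of gene-named regions (85.3%, 78.6% to 90.2%) only between 78.6% and 79.2%. The pooled level was 34.4% in SQL and 46.4% in FLL, against 35.7% and 53.4% in regions that named a TE. With a stricter read-level filter (Fisher's exact test on reads, Benjamini-Hochberg adjusted p of at most 0.001 over all CpHpG regions of the table), 29 of 45 unannotated regions had a gain (64.4%) beside 82.3% of 327 CpHpG regions. These reads had also been used for the calling, so neither interval nor filter tests the light regime.

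**Figure D2:**
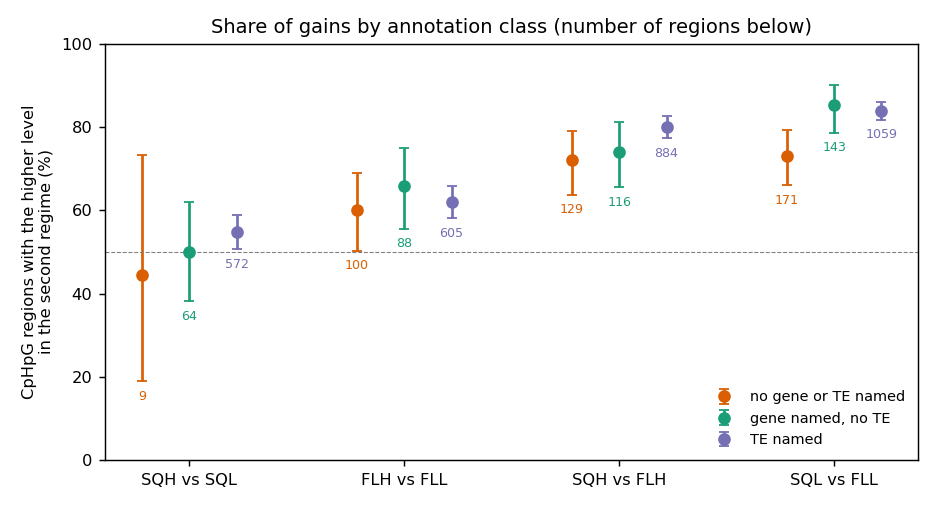
Share of CpHpG regions with the higher level in the second regime (y axis, percent) in each comparison (x axis), for regions that name no gene or TE, a gene and no TE, or a TE. Points are shares, bars are Wilson 95% intervals for counting error, and the number below each bar is the number of regions; in SQL vs FLL the unannotated share of 73.1% lies below the 84.0% of TE-named regions.

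The largest gains at low light, at the same depth, included 2 regions of the same cluster, downstream of AT1G52930, which encodes a ribosomal RNA processing protein with a Brix domain. At chr1:19713451-19713750, the 300 bp sequence printed above, the level was 6.16% (3.28% to 11.3%) in SQL and 53.3% (44.5% to 61.9%) in FLL. At chr1:19714351-19714500 it was 25% and 67.4%. The third gain, at chr5:19280555-19280704, 669 bp upstream of AT5G47530, a gene of the auxin-responsive family, was at 29.2% and 68.3%, and the nearest listed region that named a TE was 56700 bp away. Each of the 3 sequences had 1 copy in the genome.

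The losses were of like size. At chr5:21547205-21547354, 649 bp downstream of a pseudogene, the level was 48.5% (39.1% to 58.1%) in SQL and 11.0% (6.55% to 17.9%) in FLL, with over 100 reads in each library, and CpHpH methylation was 17% and 2.62%. At chr4:11414051-11414200, 1771 bp upstream of B160, it was 54.9% and 17.4%. At chr3:11470901-11471050, 64 bp downstream of AT3G29637, it was 75% and 39.3%, with CpG methylation of 89.2% and 60%. All 3 lay outside the gene-poor stretches.

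Large differences were more frequent among unannotated regions than over all CpHpG regions, and also more frequent where a region held few sites. An absolute difference of at least 30 percentage points was found in 59 of 129 unannotated regions of SQH vs FLH (45.7%, 37.4% to 54.3%), beside 29.4% of all CpHpG regions of that comparison. It was found in 48 of 171 in SQL vs FLL (28.1%, beside 22.1%), in 32 of 100 in FLH vs FLL (32.0%, beside 26.1%) and in 4 of 9 in SQH vs SQL (44.4%, beside 26.7%). Among regions with 8 or fewer CpHpG cytosines the shares were close, with 63.5% of 74 unannotated and 59.8% of all 391 in SQH vs FLH, 52.9% and 53.7% in FLH vs FLL, and 44.7% and 44.4% for SQL vs FLL. Among regions with over 8 cytosines they were 21.8% of 55 and 13.3% of 738 in SQH vs FLH, 10.2% and 10.6% in FLH vs FLL, and 11.6% and 8.16% for SQL vs FLL. In SQH vs FLH the unannotated share was above that of all regions in both groups. With at least 8 reads per cytosine it was 42.6% beside 22.7% in SQH vs FLH, 37.5% beside 23.3% in FLH vs FLL and 19.2% beside 18.1% in SQL vs FLL. With 1 genome copy it was 52.7% beside 32.8%, 39.3% beside 31.8% and 27.4% beside 21.4% in the same order. How far the number of cytosines and the annotation each account for the difference was not tested.

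**Figure D3:**
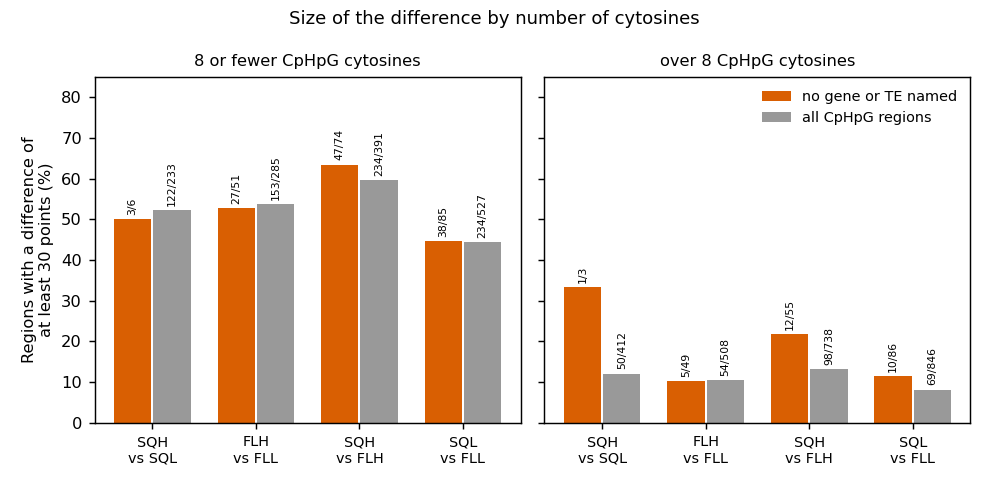
Share of regions with an absolute difference of at least 30 percentage points (y axis, percent) per comparison (x axis), for regions with 8 or fewer CpHpG cytosines (left) and with over 8 (right). Bars are unannotated regions and all CpHpG regions, with the counts above them; at 8 or fewer cytosines 38 of 85 unannotated and 234 of 527 of all regions passed in SQL vs FLL.

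The smallest differences lay at the calling minimum. In FLH vs FLL the region at chr5:13442555-13442704 went from 16.5% to 36.5% and that at chr3:13171901-13172050 from 38.8% to 18.8%. Values just under the minimum are not in the tables and were not analysed here.

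Like annotated positions, most unannotated ones were listed in a single comparison. Of the 369 positions 331 (89.7%) were found in 1 table, 36 in 2 and 2 in 3, and the share in 1 table was 86.7% of gene-named and 88.8% of TE-named positions. Levels in all 4 regimes could be read at 4 positions, all on chromosome 1 and all listed in both comparisons of light pattern, which have no library in common. At 3 of them the level was higher under the fluctuating regime at high and at low light. These are 3 of 4 unannotated positions out of 34 CpHpG positions of any class that share a bin between these comparisons. The directions at the 34 positions were not counted. Gains made up 78.6% of all CpHpG regions for the high-light pair, SQH vs FLH, and 82.8% for the low-light pair, SQL vs FLL. These are shares of gains within 1 comparison and not of a shared direction between 2. Whether 3 of 4 is usual for CpHpG positions therefore cannot be read from them, and 4 positions are few. No unannotated position was listed in both comparisons of light intensity, for which 6 CpHpG positions of any class were found. The possibly incomplete list of SQH vs SQL limits this count.

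At chr1:23639851-23640000, next to AT1G08623, the level was 8.0% in SQH and also in SQL, 81.5% in FLH and 40.0% in FLL, so both square libraries were low and FLH was higher than FLL. At chr1:23613451-23613600, 739 bp upstream of MURE, which is needed for chloroplast development, it was 1.72% in SQH and 7.25% in SQL, against 25% in FLH and 35.8% in FLL. The intervals of the square libraries there (0.305% to 9.14% and 3.13% to 15.9%) lay below those of the fluctuating ones (16% to 36.8% and 25.4% to 47.8%). The CpHpH regions that overlap this bin named the TE AT1TE77760, so the position is unannotated only in the CpHpG rows.

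At chr1:5171851-5172000, overlapping AT1G15010, annotated as a mediator of RNA polymerase II transcription subunit, square light gave 46.2% (SQH) and 54.7% (SQL) and fluctuating light 74.7% (FLH) and 75.4% (FLL). Its CpHpH methylation moved in parallel, from 32.6% to 51.8% at high light and from 31.5% to 52.1% at low light. The fourth position, chr1:9077851-9078000, overlapping AT1G26240 of the proline-rich extensin-like family of cell wall proteins, had 30.1% (22.1% to 39.5%) in SQH, 51.5% (41.7% to 61.2%) in SQL, 54.9% (44.1% to 65.2%) in FLH and 27.5% (21% to 35.2%) in FLL. SQH and FLL were thus low with overlapping intervals, SQL and FLH high with overlapping intervals, and the direction between square and fluctuating light was opposite at high and at low light. CpG methylation of this bin was 82.5% in SQL and 42.2% in FLL.

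A further 34 positions had levels in 3 regimes, because 2 comparisons with a common library listed them. Being listed in both requires the common library to differ by at least 20 points from each of the others, so that difference is fixed by the choice, and it lay between them at 0 of the 34 positions. FLH was the common library at 15 positions, higher than SQH and FLL at 7 and lower at 8. FLL was common at 15, higher than SQL and FLH at 10 and lower at 5, and SQH at 4, higher than SQL and FLH at 2. The remaining 2 libraries, which the rule does not compare directly, differed by a median of 4.63 points between SQH and FLL, 2.92 between SQL and FLH where FLL was common, and 0.654 where SQH was. Both had to lie at least 20 points from the common library, and both lay on the same side of it. Their closeness therefore follows in part from the choice. Neither these medians nor the counts above were computed for annotated positions, so they show nothing particular to unannotated ones.

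Some of these positions flank genes of known role and were chosen after their values were seen. At chr4:10007801-10007950, 174 bp upstream of APRR2, a regulator of the two-component response family, the levels were 60.9% in SQH, 3.12% in FLH and 34.1% in FLL. They rest on 4 CpHpG cytosines, with 14 of 23, 1 of 32 and 14 of 41 reads methylated. At chr2:7720301-7720450, 2374 bp upstream of BZIP27, a leucine zipper factor related to the flowering factor FD, the levels were 19.7% in SQH, 51.5% in FLH and 20.2% in FLL. At chr3:16906151-16906300, 1033 bp downstream of ADF2, an actin depolymerizing factor, they were 13.3% in SQL, 12.6% in FLH and 36.4% in FLL. At chr3:20574251-20574400, the EXPA16 position of the square regime, FLH had 14.0%, next to 13.6% in SQL and 45.8% in SQH.

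**Figure D4:**
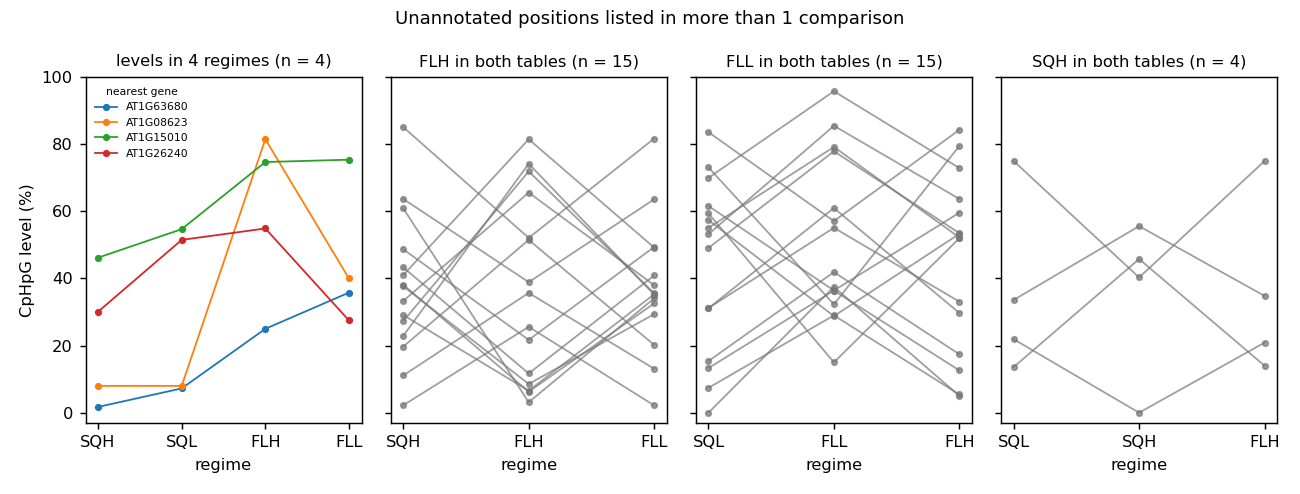
CpHpG level (y axis, percent) in each regime (x axis) at the unannotated positions listed in more than 1 comparison, 1 line per position, with the 4 positions that have levels in 4 regimes on the left, labelled by their nearest gene. In the other panels the common library stands in the middle and differs from its neighbours by construction; the line of AT1G08623 goes from 8.0% in both square libraries to 81.5% in FLH and 40.0% in FLL.

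Unannotated CpHpG regions were listed in other contexts as well more often than annotated ones. In the same table, 96 of the 409 entries (23.5%) overlapped a region called in CpG (27) or CpHpH (79), with 10 in both, against 39 of 411 gene-named entries (9.49%) and 332 of 3120 TE-named entries (10.6%). The share was 24.8% in SQH vs FLH, 23.4% in SQL vs FLL and 22.0% in FLH vs FLL. All 96 had the same direction in each context, as had 38 of the 39 gene-named and 326 of the 332 TE-named entries. In SQL vs FLL, 20 bins with a gain in CpHpG had pooled CpHpG levels of 34.1% and 62.0% and CpHpH levels of 16.2% and 31.6%, and 10 bins with a loss in CpHpG and CpG had CpHpG levels of 44.3% and 17.2% and CpG levels of 69.7% and 36.8%. The contexts are read from the same molecules, so they are not separate measurements of a region, and these shares are a description with no test.

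Since the tables named no gene at the unannotated positions, a place outside genes follows largely from the choice. By their midpoints 230 of 369 (62.3%) were intergenic, 107 (29.0%) within 1 kb upstream of a protein-coding gene and 32 (8.67%) inside a gene of the RefSeq annotation, which the deposited tables did not name there. Of TE-named positions 32.9% were intergenic and 5.99% within 1 kb upstream, and of gene-named ones 4.70% and 3.87%. Of the 45 that touched an annotated gene, 22 touched a protein-coding gene, 15 a long noncoding RNA, 7 another noncoding RNA and 1 a pseudogene. The nearest gene was protein-coding for 204 positions, of which 118 lay on its upstream side at a median of 522 bp and 64 on its downstream side at a median of 505 bp. Upstream and downstream of protein-coding genes the shares of gains were 66.7% of 39 and 55.6% of 18 regions in FLH vs FLL, 73.8% of 42 and 64.7% of 17 in SQH vs FLH, and 71.7% of 46 and 75.7% of 37 for SQL vs FLL, so the order by side was not the same in each.

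The unannotated positions were less often in gene-poor stretches than TE-named ones and about as often as gene-named ones. Of the 369 positions 122 (33.1%, 28.5% to 38%) lay in the gene-poor stretches, the run of 500 kb windows on each chromosome where protein-coding genes numbered under 0.5 times the chromosome's median window, against 60.4% (58.5% to 62.2%) of TE-named positions and 31.5% (26.9% to 36.4%) of gene-named ones. These stretches cover 14.3% of the nuclear genome. With the limit at 0.25 times the median the share was 20.3%, against 43.1% of TE-named and 18.5% of gene-named positions. Chromosomes 1 to 5 held 69, 61, 64, 83 and 92 positions.

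The share of gains was higher inside the gene-poor stretches in the comparisons of light pattern. In SQH vs FLH it was 35 of 41 inside (85.4%, 71.6% to 93.1%) and 58 of 88 outside (65.9%, 55.5% to 75%), and over all CpHpG regions 83.7% and 71.8%. In SQL vs FLL it was 81.8% of 55 inside and 69.0% of 116 outside, and over all CpHpG regions 86.0% and 79.5%. In FLH vs FLL the values were 62.5% and 58.8%, and over all CpHpG regions 61.4% and 63.1%, the other way round. The intervals inside and outside overlapped in each of these comparisons.

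Most unannotated positions, like gene-named ones, lay over 1 kb from a TE-named region. The nearest region of any table and context that named a TE was at a median of 2700 bp, against 3000 bp for gene-named positions and 600 bp from a TE-named position to the next one. It touched or overlapped 16 unannotated positions, lay within 1 kb of 88 (23.8%, against 17.7% of gene-named and 64.6% of TE-named positions) and was over 10 kb away for 84. At 6 positions a row of another context or table that overlapped the bin did name a TE or gene, among them the TE loci AT1TE77440 of ATREP3 and AT2TE52020 of ATHILA7.

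**Figure D5:**
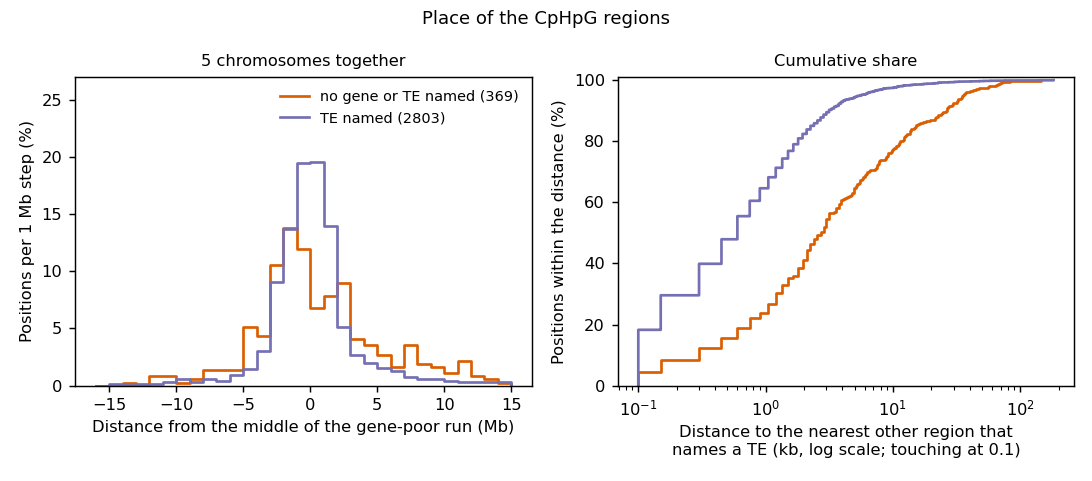
Left, share of positions (y axis, percent) by distance from the middle of the gene-poor stretch of their chromosome (x axis, Mb), for 369 unannotated and 2803 TE-named positions. Right, cumulative share of positions (y axis, percent) by distance to the nearest other region that names a TE (x axis, kb, log scale); 23.8% of unannotated and 64.6% of TE-named positions lie within 1 kb.

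In sequence the unannotated positions were poor in G and C and mostly unique. Their median GC content was 35.3% (quartiles 31.3% and 40.0%), against 41.3% at gene-named and 40.7% at TE-named positions and 38% over the 625705 bins of 150 bp with at least 4 CpHpG cytosines. Runs of a single letter of at least 6 bases, or of a repeated pair of letters of at least 8 bases, occurred in 39.0% of them, against 21.5%, 25.4% and 32.6%. CCG made up 21.3% of their CpHpG cytosines, against 19.9%, 17.1% and 18.6%. A single genome copy (blastn, at least 80% identity over 100 bases) was found for 203 positions (55.0%), against 43.1% of gene-named and 20.1% of TE-named ones.

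Regions without any CCG site had a higher share of gains in SQH vs FLH, among unannotated and among all CpHpG regions. In SQH vs FLH 41 of 48 regions with no CCG had a gain (85.4%), against 52 of 81 with at least 1 (64.2%), and over all CpHpG regions of that comparison the shares were 85.4% and 75.3%. The pooled levels in FLH were 51.6% and 41.4% after like levels of 31.5% and 31.6% in SQH. In SQL vs FLL the shares were 70.2% of 57 and 74.6% of 114, beside 83.1% and 82.7% over all CpHpG regions. In FLH vs FLL they were 57.1% of 28 and 61.1% of 72, beside 60.5% and 62.9%, and whether the comparisons differ in this was not tested.

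A small group was picked by its number of copies after the values were seen. Of the unannotated entries 12 matched over 1000 places of the genome (1362 to 2255), and 11 of them lay in gene-poor stretches. The centromeres of Arabidopsis are known to consist of tandem satellite repeats. In 11 of the 12 the level was higher in the second regime, with 7 of 8 in SQL vs FLL, 3 of 3 in SQH vs FLH and 1 of 1 in FLH vs FLL, beside 82.8%, 78.6% and 62.2% over all CpHpG regions, so that with so few regions the direction does not set them apart. The pooled level was 16% in the first regime and 44.3% in the second. These levels join several comparisons, with FLH as the first regime in FLH vs FLL and as the second in SQH vs FLH, so they contrast no single pair of regimes. Only 1 annotated CpHpG region, named AT4G05612, had as many copies, and it was a loss.

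The 12 fell into 2 sets by matches among themselves. A set of 5 on chromosome 1, to which the printed chr1:14701501-14701650 belongs, held no CCG among its 26 CpHpG cytosines, and its pooled level was 16.6% and 41.1%. A set of 7 on chromosomes 2, 4 and 5, with the printed chr5:11879405-11879554, held 18 CCG among 40 and had 15.7% and 45.9%. The levels of this second set lay between 0% and 24.1% in the first regime and between 28.6% and 58.3% in the second. All 7 were gains of at least 20 points by the rule for calling, so the gap between the ranges follows largely from the choice. At chr5:11879405-11879554 the level was 0 of 35 reads in SQL (Wilson upper limit 9.89%) and 29.8% in FLL, and at chr1:14701501-14701650 it was 3.03% in SQH and 47.8% in FLH. The loss was at chr1:14737801-14737950, with 48.1% in SQL and 13.9% in FLL. None of the 12 was also listed in another context, and the summed counts do not show how reads from near-identical copies were placed.

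Unannotated regions rarely formed clusters. Joined within 1 kb over all tables they made 355 clusters, of which 344 held 1 position, 8 held 2 and 3 held 3. The densest spanned 600 bp from chr1:13288351 to 13288950 in a gene-poor stretch and held neighbouring bins of opposite direction in SQH vs FLH, with 10.3% and 50% at chr1:13288651-13288800 and 45.9% and 12.5% at chr1:13288801-13288950. In the same cluster chr1:13288351-13288500 had 23.3% in SQL and 60.7% in FLL. The next spanned 1050 bp downstream of AT1G52930. There chr1:19713451-19713600 had 10.3% (4.83% to 20.8%) in FLH and 58.6% (46.9% to 69.4%) in FLL, CpG methylation of 47.2% and 80.6% and CpHpH methylation of 0.885% and 28.0%, so that FLL was above FLH in FLH vs FLL and above SQL in SQL vs FLL with the same FLL library in both comparisons.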

How the data were processed

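Whole-genome bisulfite sequencing covered 4 libraries of 6 pooled plants, 1 per regime. The authors trimmed the reads with Trimmomatic 0.39, aligned them to TAIR10 with Bismark and Bowtie2, discarded duplicate reads, and used DMRcaller on bins of 150 bp (P-value threshold 0.01; minimum of 4 cytosines, 4 reads per cytosine and a proportion difference of 0.2 in CpHpG). The versions of the last 3 tools are not given in the sources used here. The values used are raw read counts from the deposited tables, methylated and in total, which the authors had added up across a region's cytosines, library by library. Their columns of proportion differences, directions and p-values compare the regimes and were not used. The number of unused columns of per-sample values was 0.

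Each chromosome, start and end was counted once per table. Levels, differences and Wilson 95% intervals, which cover counting error only, were recomputed from the counts. Fisher's exact test (two-sided, Benjamini-Hochberg adjusted over all CpHpG regions of a table) served only as a stricter filter and was tested on simulated data. The TAIR10 sequence and annotation came from RefSeq, and the cytosine number of a region was identical to that sequence in 3940 of 3940 CpHpG regions. Reads of a library were identical wherever 2 tables list the same CpHpG region (83 such pairs in SQH, 72 in SQL, 108 in FLH, 112 in FLL). Copies were counted with blastn 2.17.0. Python 3.11.15, pandas 2.3.3, SciPy 1.17.1 and statsmodels 0.14.6 were used.

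Regions named in the text were the 3 largest differences in each direction per comparison (with at least 8 reads per cytosine, except in SQH vs SQL), those in 3 tables or in both comparisons without a common library, and those of the 2 densest clusters; 1 region that the rule names is not reported here. Further regions are said to have been picked after their values were seen, except the remaining members of SQH vs SQL. The alternatives were the coverage minimum, the read-level filter, joining within 1 kb, names in overlapping rows, single bins, 1 copy only, the median level, any overlap, the gene-poor limit and the copy identity. Members and lists were chosen with earlier results of these data known.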

Additional observations from a re-analysis of the deposited data

Results flagged for a closer look

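At chr1:9077851-9078000, overlapping AT1G26240, CpHpG methylation was higher by 24.8 percentage points in FLH than in SQH, and between SQL and FLL it fell by 24.0 points. The 2 differences are 48.8 points apart and point in opposite directions, which is what singled the region out among the 4 unannotated positions listed in both comparisons of light pattern. The difference between them was not tested, because there was 1 library per regime.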

How the results depend on the processing

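With 1 library per regime, no replicate could be left out. No paired analysis was possible because each group had 1 library. Of 112 values under another setting, 72 stayed within the interval, or within 1.5 times the count, of the value in the report, 39 moved and 1 reversed. With at least 8 reads per cytosine the numbers of regions were 2 in SQH vs SQL (0 gains, 0%, and 0 past 30 points), 48 in FLH vs FLL (18 past 30 points), 78 in SQL vs FLL (15) and 47 in SQH vs FLH (20). The shares past 30 points were 37.5% in FLH vs FLL, 19.2% in SQL vs FLL and 42.6% in SQH vs FLH. Over all CpHpG regions at that depth they were 23.3%, 18.1% and 22.7%. Of all CpHpG regions at that depth in SQH vs SQL, 56.3% had a gain and 21.3% passed 30 points. With the adjusted p of at most 0.001 they were 3, 32, 45 and 46 in that order, with 2, 14, 17 and 27 past 30 points, and the shares of gains were 66.7% in SQH vs SQL, a reversal resting on 3 regions, 64.4% in SQL vs FLL and 82.6% in SQH vs FLH. With 1 copy only the numbers, in the same order, were 5, 56, 95 and 74, with 26 past 30 points in SQL vs FLL and 39 in SQH vs FLH. These were 27.4% and 52.7%, beside 21.4% and 32.8% over all CpHpG regions with 1 copy. The median level in place of the pooled one was 21.9% for SQL in SQH vs SQL, 32.5% for FLH and 36.5% for FLL in FLH vs FLL, 32.0% for SQL and 47.5% for FLL in SQL vs FLL, and 30.1% for SQH in SQH vs FLH. With at least 8 reads per cytosine the pooled level was 41.1% for SQH and 19.2% for SQL in SQH vs SQL, 39.8% for FLL in FLH vs FLL, 31.8% for SQL and 42.1% for FLL in SQL vs FLL, and 30.6% for SQH in SQH vs FLH. The stricter gene-poor limit gave 20.3% of positions, and copies at 95% identity left 81.0% with 1 copy. Smaller numbers follow from the filters themselves, and the cause of the other shifts was not tested. Leaving out the 12 regions of over 1000 copies, chosen after seeing the data, moved no value. Depth limits what SQH vs SQL can show, since only 2 of its 9 regions reached 8 reads per cytosine in both libraries. Its list of 645 CpHpG regions, which may be incomplete because it lies below the paper's 793 to 1373, limits it as well.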
